A study of Arabidopsis thaliana with 12 samples.

Results

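The regions described here are the annotated microRNA (miRNA) genes of *Arabidopsis thaliana* outside the miR156 and miR166 families. All genes on chromosomes 1 to 5 that the TAIR10 annotation lists as miRNA genes with a symbol starting with MIR were taken, except MIR156, MIR157 and MIR166 genes. This gave 305 miRNA genes, from 212 families, of 37899 annotated genes, after 14 MIR156 or MIR157 genes and 7 MIR166 genes had been set aside. The rule uses no measured value, but it was set with earlier results of these data known. Histone H3 trimethylated at lysine 27 (H3K27me3) was profiled by chromatin immunoprecipitation and sequencing (ChIP-seq) in whole 14-day-old seedlings of 4 genotypes, the double mutant brm-1 clf-29, the single mutants brm-1 and clf-29, and wild-type Col. Both alleles are T-DNA insertions, brm-1 a null allele of BRAHMA and clf-29 an allele of CURLY LEAF. Each genotype has 2 ChIP libraries and 1 input library, which is chromatin sequenced without the antibody. No treatment was applied, and every group was grown in long days on the same medium. Seedlings mix many cell types, and fewer cells with the mark cannot be told apart from less mark per cell.

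H3K27me3 is written by Polycomb repressive complex 2, and CURLY LEAF (CLF) is one of its catalytic subunits, partly redundant with SWINGER. BRAHMA (BRM) is the ATPase of a SWI/SNF chromatin remodelling complex. Plant miRNA genes are transcribed by RNA polymerase II as independent units, and their short mature products guide the cleavage or translational repression of target mRNAs, many of which encode transcription factors. Several genes can encode the same mature miRNA, so the mark on one gene of a family need not match that on another.

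The mature sequences of the miRNA genes on which the results turn are given first, from the RefSeq annotation of TAIR10.1, with the seed (bases 2 to 8) in capitals. All 305 genes had at least 1 mature miRNA in that annotation, 395 in all. The first set comes from genes whose mark was lost in clf-29 or was gained in brm-1. MIR5026, MIR850 and MIR863 are neighbours on chromosome 4 and do not share a seed. MIR845a and MIR845b lie near each other on the same chromosome and differ in the seed.
miR850: uAAGAUCCggacuacaacaaag
miR863-3p: uUGAGAGCaacaagacauaau
miR5026: aCUCAUAAgaucgugacacgu
miR845a: cGGCUCUGauaccaauugaug
miR845b: uCGCUCUGauaccaaauugaug
miR3932b-3p: aACUUUGUgaugacaacgaag

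The second set shows why family members have to be read one by one. Genes with very different H3K27me3 encode the same or nearly the same miRNA. MIR160a, MIR160b and MIR160c share 1 mature sequence, as do MIR167a and MIR167b, while miR167c-5p has another seed. The MIR172 genes share 1 seed and fall into 3 mature sequences.
miR160a-5p: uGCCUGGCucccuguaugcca
miR167a-5p: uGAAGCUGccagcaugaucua
miR167c-5p: uAAGCUGCcagcaugaucuug
miR172a: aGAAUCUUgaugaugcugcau
miR172c: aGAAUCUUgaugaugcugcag
miR172e-3p: gGAAUCUUgaugaugcugcau

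For each gene, reads were counted over 1 kb around its midpoint, which spans the hairpin and its flanks, and are given as RPM, the reads scaled to 1000000 kept reads of the library. The ChIP libraries had 3901085 to 7277025 reads, of which 2112103 to 3654258 remained after copies at the same position and strand had been removed, and the inputs kept 3421391 to 4291138. In the 4 inputs the median over the miRNA genes was 7.89 to 8.2 RPM. Windows that were not enriched in any genotype had a median of 3.01 and 2.98 RPM in the Col ChIP libraries, against 0.751 to 1.54 RPM in the ChIP libraries of the mutants. On the log2(RPM + 1) scale the median of all 37895 genes tested moved by -0.64 in brm-1, -0.64 in clf-29 and -0.71 in brm-1 clf-29 relative to Col, and by 0.03 between brm-1 clf-29 and brm-1. The reads are not all at unique positions: 220 of the 305 windows consist of unique 51-mers alone, and 38 have under 90% of them, of which 3 were enriched in any genotype. RPM values show how the mark is distributed within a library and not its total amount. Levels of AG, a known H3K27me3 target, were 37.8 and 52.7 RPM in the double mutant, 60.9 and 70.6 in brm-1, 25.4 and 45 in clf-29 and 54.7 and 51.3 in Col. The actively transcribed gene TUB2 had at most 3.01 RPM in any ChIP library.

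A gene was called enriched in a genotype where both ChIP libraries exceeded 2 times the RPM of the input with an adjusted p under 0.01 (exact binomial test). By this criterion, 74 miRNA genes were enriched in brm-1 clf-29, 89 in brm-1, 64 in clf-29 and 80 in Col. Over all genes tested the enriched share was 16.6% in brm-1 clf-29, 18% in brm-1, 15.7% in clf-29 and 17.1% in Col. Of the miRNA genes, 24.3% were enriched in brm-1 clf-29, 29.2% in brm-1, 21% in clf-29 and 26.2% in Col. In total 98 miRNA genes were enriched in at least 1 genotype, 56 in all 4, and 207 in none. The commonest partial pattern, with 12 genes, was enrichment in brm-1 and Col but in neither genotype that carries clf-29. Another 15 genes were enriched in brm-1 but not in Col, and 6 in Col but not in brm-1. Some of the genes are so close that their windows share bases (41 genes, 28 of them enriched somewhere), so that neighbouring genes are not independent measurements.

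Enriched genes were counted in each function list. Over all 305 miRNA genes, 98 were enriched in at least 1 genotype (32.1%), as were 20.6% of all genes tested. Of 30 genes of families that regulate organ patterning and growth, 19 were enriched in at least 1 genotype, and so were 21 of 35 genes linked to nutrients and metals. The list for phase change and flowering, which holds MIR172 and MIR824, had 4 of 6 genes enriched, and the MYB regulators MIR828 and MIR858 had 2 of 3. None of the 6 genes in the small RNA pathway list was enriched in any genotype. That list holds MIR173 and also MIR162, MIR168 and MIR403, whose targets include DICER-LIKE and ARGONAUTE mRNAs. MIR168a, for example, had 0 and 1.28 RPM in the double mutant, 0.835 and 0.751 in brm-1, 1.54 and 0.947 in clf-29 and 1.92 and 2.32 in Col, all below the inputs. Of the remaining 225 genes, from 184 families, 52 were enriched. These counts describe the lists, which were chosen with earlier results of these data known, and the difference between lists was not tested.

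**Figure D1:**
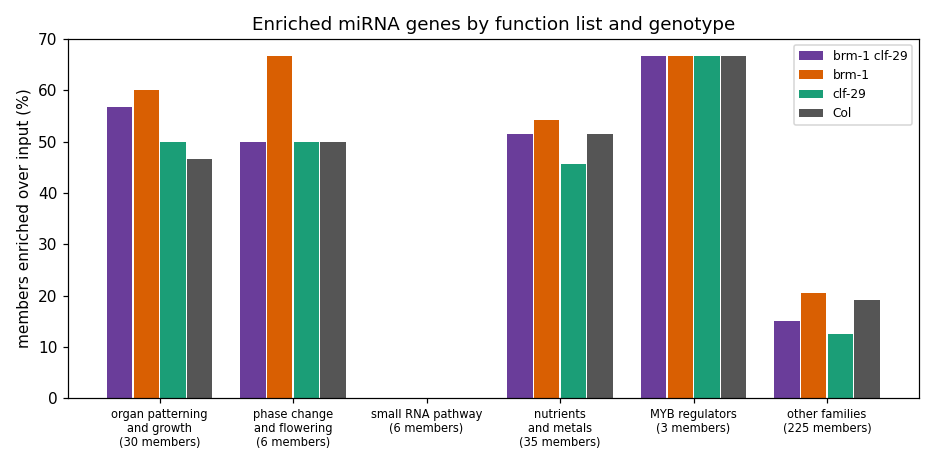
Share of miRNA genes enriched for H3K27me3 over input (percent, vertical axis) in the double mutant, brm-1, clf-29 and Col, for 5 function lists and the other families. No bar stands over the small RNA pathway, where 0 of 6 genes were enriched, and clf-29 has the lowest bar among the nutrient genes and the other families.

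The highest levels in Col among enriched genes included several miRNA genes of development. MIR394b, whose miRNA targets the F-box gene LEAF CURLING RESPONSIVENESS and acts in the shoot meristem, had 113 and 102 RPM in the double mutant, 78.7 and 79.3 in brm-1, 126 and 123 in clf-29 and 72.2 and 79.2 in Col. MIR319a, a regulator of TCP transcription factors in leaf growth, had 103 and 108 RPM in the double mutant, 82.3 and 84.5 in brm-1, 109 and 116 in clf-29 and 69.8 and 75.8 in Col. At both genes the libraries of the genotypes with clf-29 stood above those of Col, and neither change reached 2-fold. MIR8183 had almost the same level throughout, with 73.5 and 71.5 RPM in the double mutant, 78.4 and 86.4 in brm-1, 78.5 and 84.8 in clf-29 and 73.6 and 67.9 in Col. MIR5015, MIR172d, MIR160a, MIR394a, MIR172c, MIR169e and MIR165b, whose miRNA targets HD-ZIP III genes of organ polarity, followed. MIR5642a and MIR5642b had up to 404 RPM but lie in repeated sequence, were higher still in their inputs, and were not enriched.

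The first comparison asked whether H3K27me3 at these genes differs without BRM. In brm-1, 3 miRNA genes were called higher than in Col and 36 lower (more than 2-fold and Benjamini-Hochberg adjusted p under 0.05, limma over all genes). The corresponding shares over all genes tested were 0.288% and 19.4%. Of 95 miRNA genes enriched in brm-1 or Col, 2 were called higher and 0 lower, where 0.787% and 0.124% of all such genes were called, so every gene called lower lay in a window without enrichment. That count of 36 was 5 without Col replicate 1, 4 without Col replicate 2 and 5 without brm-1 replicate 2. The median change of the 95 genes was 0.32 on the log2 scale, and 0.27 over all enriched genes. Without the fold requirement 25 of the 95 genes were higher and 0 lower at adjusted p under 0.05 (limma), or 26.3% and 0%, against 24.2% and 0.58% of all enriched genes. The 25 became 5 without Col replicate 1, 2 without Col replicate 2, 3 without brm-1 replicate 2 and 6 at adjusted p under 0.01. At an unadjusted p under 0.05, 36 were higher and 0 lower, against 39.1% and 1.06% of all enriched genes, and limma-voom called 2 higher and 0 lower. A positive change was found at 87 of the 95. Both the calls and the direction depend on the scaling. With size factors taken over windows enriched in Col, 55 of the 95 were above 0 with a median of 0.08, 0 were called higher, and 8 were higher without the fold requirement. With each library's background taken off, 54 were above 0 and none passed the adjusted p. Factors over all genes gave 46 called higher and a median of 0.996, and factors over windows enriched in no genotype gave 88 called higher and a median of 1.36. The shares of all enriched genes called under these scalings are not given here or for the comparisons below. These counts therefore do not set miRNA genes apart from other enriched genes.

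The 2 enriched genes called higher in brm-1 are neighbours. MIR850 had 47.3 and 47.7 RPM in brm-1 and 19.4 and 25.5 RPM in Col, a log2 change of 1.06 (SE 0.21, adjusted p 0.000849, limma). MIR5026 had 36.2 and 48.1 RPM in brm-1 and 17.8 and 19.9 RPM in Col, a log2 change of 1.11 (SE 0.25, adjusted p 0.00307, limma). Both brm-1 libraries were above both Col libraries at each gene. MIR863, which lies beside MIR850 and whose miR863-3p is known to act in the response to bacteria, had 32.8 and 41 RPM in brm-1 and 21.3 and 16.2 RPM in Col, a change of 0.94 that passed the adjusted p (0.00863, limma) but not 2-fold. Without Col replicate 2 or without brm-1 replicate 2 MIR863 did not pass (adjusted p 0.131 and 0.13, limma). The windows of the 3 genes lie at chr4:7844092-7847247, within 1 enriched region of 21600 bp in brm-1 and 21200 bp in Col. In the genotypes with clf-29 the same locus had 20.7 and 22 RPM at MIR850 in brm-1 clf-29 and 8.86 and 9 RPM in clf-29, and no clf-29 region overlapped any of the 3 genes. The third gene called higher, MIR169a, had 8.9 and 12.8 RPM in brm-1 and 3.01 and 4.64 RPM in Col, levels that did not pass the enrichment test. With size factors over windows enriched in Col, the changes of MIR850 and MIR5026 were 0.83 and 0.88, under 2-fold with adjusted p 0.00313 and 0.00642 (limma). Leaving out Col replicate 1 gave 0.87 (adjusted p 0.0533, limma) for MIR850, and leaving out brm-1 replicate 2 gave 0.91 (adjusted p 0.0896, limma) for MIR5026.

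Among the 25 genes that passed the adjusted p in brm-1 without the fold requirement were the following 7, with changes under 2-fold. They are examples, and not those with the largest change or the lowest adjusted p. Another of the 25 changed by 0.76 (adjusted p 0.0206, limma), and MIR5015 changed by 0.52 (adjusted p 0.00168, limma). MIR167c, whose miRNA targets AUXIN RESPONSE FACTOR genes, had 28.9 and 37.6 RPM in brm-1 and 21.1 and 19.2 RPM in Col, a log2 change of 0.69 (SE 0.20, adjusted p 0.0168, limma). Its input differed as well, with 6.41 RPM in brm-1 and 12 RPM in Col, and by the criterion over input MIR167c was enriched in brm-1 and not in Col. MIR172b, whose miRNA represses the floral repressor genes of the APETALA2 group, had 32.8 and 29.7 RPM in brm-1 and 16.7 and 21.2 RPM in Col (log2 change 0.70, SE 0.19, adjusted p 0.012, limma). MIR395a, MIR169b, MIR160b, MIR164c and MIR393a had log2 changes of 0.73, 0.70, 0.61, 0.63 and 0.75 (adjusted p 0.00794 to 0.029, limma). For these genes too, both brm-1 libraries exceeded both Col libraries. At MIR160b, as at MIR167c, the inputs of brm-1 and Col differed by more than 1.5-fold. None of the 7 passed without Col replicate 2 or without brm-1 replicate 2 (adjusted p 0.0518 to 0.219, limma), and MIR164c alone passed without Col replicate 1. With size factors over windows enriched in Col 4 of the 7 passed (MIR395a, MIR169b, MIR160b and MIR172b), and with each library's background taken off none did (adjusted p 0.144 to 0.583, limma).

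**Figure D2:**
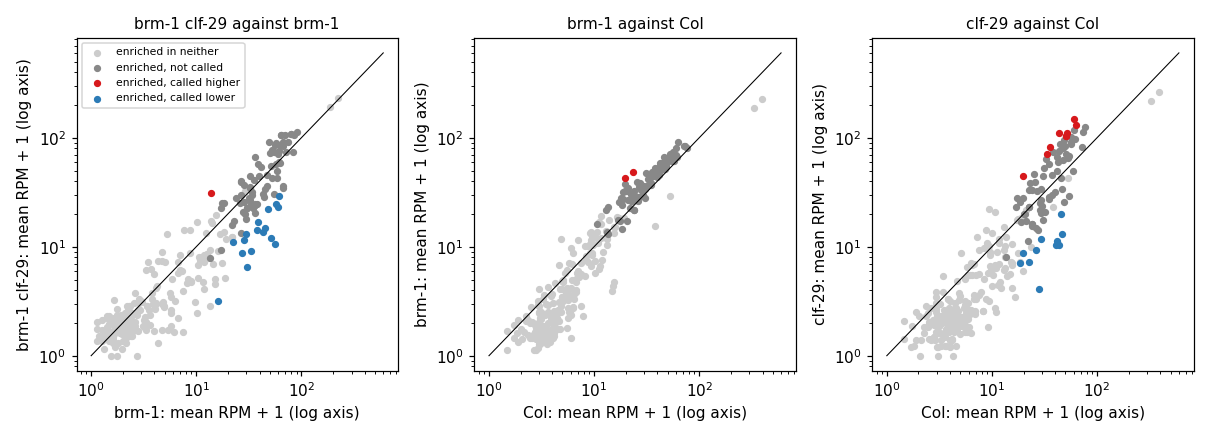
Mean RPM + 1 (log axes) of the 305 miRNA genes, as 1 point each, for the double mutant against brm-1, brm-1 against Col and clf-29 against Col, with the line of equal values. The left panel has 17 enriched genes called lower and 1 called higher, the middle panel 2 called higher and the right panel 9 called higher and 11 called lower.

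The second comparison asked what is lost or gained in the clf-29 mutant. In clf-29, 10 miRNA genes were called higher than in Col and 86 lower, where 4.13% and 23.9% of all genes were called. Of 86 genes enriched in clf-29 or Col, 9 were called higher and 11 lower, against 20.9% and 7.29% of all enriched genes. Their median change was 0.24, against 0.50 over all enriched genes. The enriched genes called lower were 2 of 21 in the nutrient list (MIR395d and MIR397a), 0 of 15 in the patterning list and 9 of 45 in other families. These counts are small, and the difference between the lists was not tested. The count of 86 lower over all miRNA genes was 56 without Col replicate 1 and 53 without Col replicate 2, and the 10 higher were 17 without clf-29 replicate 1. With size factors over windows enriched in Col, 0 of the 86 were called higher and 22 lower, and with factors over windows enriched in no genotype 46 were called higher and 2 lower.

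Among the 86 enriched genes the largest loss was at MIR3932b, which lies on the same strand as an overlapping protein-coding gene. Its level was 3.85 and 2.37 RPM in clf-29, against 28.7 and 25.5 RPM in Col, a log2 change of -2.80 (SE 0.26, adjusted p 2.3e-13, limma). MIR845a fell to 5.39 and 13.3 RPM in clf-29, against 47.3 and 36.8 RPM in Col (log2 change -2.16, SE 0.25, adjusted p 2.49e-10, limma). MIR845b fell to 8.09 and 12.3 RPM in clf-29, against 44.9 and 36.4 RPM in Col (log2 change -1.91, SE 0.21, adjusted p 8.17e-11, limma). miR845 is known for pairing with the primer binding site of LTR retrotransposons, in pollen. The windows of MIR845a and MIR845b (chr4:12213618-12217986) lay within 1 enriched region of 22000 bp in brm-1 and 21600 bp in Col, and no enriched region covered them in clf-29 or in brm-1 clf-29.

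MIR8171 had 8.86 and 9.94 RPM in clf-29 and 42.7 and 37.1 RPM in Col (log2 change -1.97). MIR5664 had 11.9 and 12.3 RPM in clf-29 and 45.7 and 45 RPM in Col (-1.82), and MIR5665 had 5.39 and 7.1 RPM in clf-29 and 21.9 and 21.5 RPM in Col (-1.66). The clf-29 input had 8.73 RPM at MIR8171, 9.79 RPM at MIR5664 and 8.2 RPM at MIR5665, and none of the 3 was enriched in clf-29. MIR5028 changed by -1.40, MIR5026 by -1.26 and MIR5648 by -1.16, with 19.6 and 18.5 RPM in clf-29 and 46.5 and 41.4 RPM in Col at the last. MIR395d, whose miRNA targets ATP sulfurylase and a sulphate transporter mRNA, had 7.32 and 9.47 RPM in clf-29 and 23.8 and 26.2 RPM in Col (log2 change -1.48, SE 0.23, adjusted p 8.63e-07, limma). MIR397a, a regulator of laccase genes, had 7.32 and 4.74 RPM in clf-29 and 18.1 and 16.6 RPM in Col (-1.41). MIR850 and MIR863 also fell, by 1.23 and 1.73 on the log2 scale, although their Col level did not meet the enrichment criterion in both replicates. The falls of MIR3932b, MIR845a and MIR5641 (-1.95) passed the threshold under every alternative run for them. MIR5641, with a mean of 9.58 RPM in Col, was enriched in neither clf-29 nor Col. Leaving out clf-29 replicate 1 gave -0.80 for MIR5026 and leaving out clf-29 replicate 2 gave -0.86 for MIR5028, both under 2-fold. MIR172a, below the enrichment criterion in clf-29 and Col, changed by -1.06, and gave -0.91 (adjusted p 0.0813, limma) without Col replicate 1 and -0.99 without clf-29 replicate 1.

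**Figure D3:**
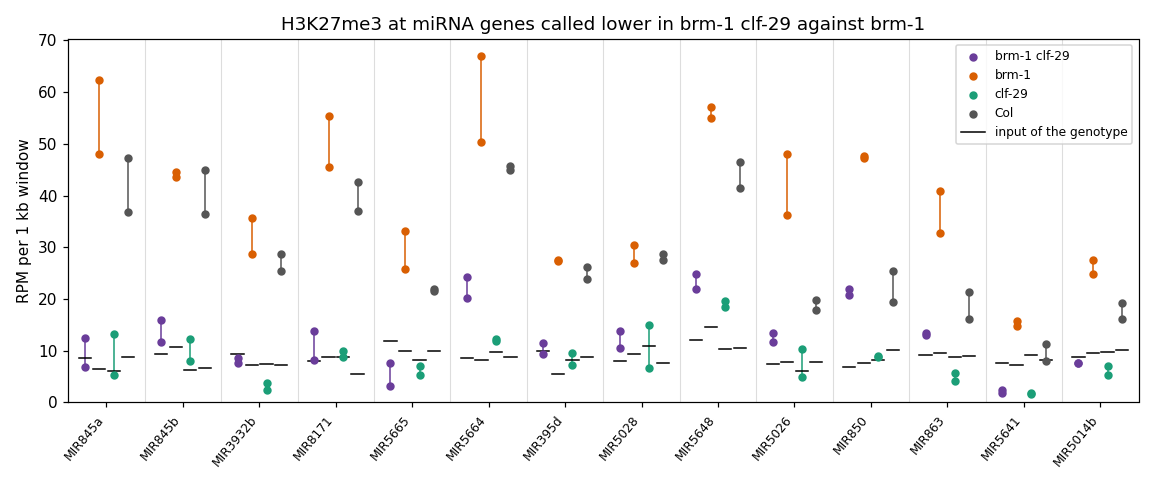
RPM of 14 miRNA genes in the 2 ChIP libraries (points joined by a line) of the double mutant, brm-1, clf-29 and Col, with short black lines for the input of each genotype. At MIR845a the brm-1 clf-29 libraries had 6.9 and 12.4 RPM, those of brm-1 48.1 and 62.4, those of clf-29 5.39 and 13.3 and those of Col 47.3 and 36.8.

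Genes called higher in clf-29 were already marked in Col, with the exceptions of MIR169b, MIR167a and MIR780. MIR160a, which targets AUXIN RESPONSE FACTOR 10, 16 and 17 mRNAs, had 143 and 151 RPM in clf-29 and 57.7 and 61.3 RPM in Col (log2 change 1.29, SE 0.11, adjusted p 2.72e-14, limma). MIR5019 had 104 and 114 RPM in clf-29 and 44.6 and 40.7 RPM in Col (log2 change 1.33, SE 0.13, adjusted p 1.46e-12, limma). MIR8182 had 82.8 and 79.5 RPM in clf-29 and 34.8 and 33.8 RPM in Col (1.22), and MIR169b, a regulator of NF-YA genes, 44.7 and 43.1 RPM in clf-29 and 18.1 and 19.5 RPM in Col (1.18). MIR774b, MIR780 and MIR5015 changed by 1.08, 1.09 and 1.07. MIR826a and MIR826b, which share a locus on opposite strands and are 1 measurement, changed by 1.03. All of these are relative to a library total. With size factors over windows enriched in Col, MIR160a changed by 0.83, MIR5019 by 0.88, MIR8182 by 0.76 and MIR169b by 0.73, each above 0 at adjusted p under 0.05 and under 2-fold. MIR167a had 12.3 and 30.3 RPM in clf-29 and 8.48 and 8.28 RPM in Col (log2 change 1.12), and without clf-29 replicate 2 its change was 0.51 (adjusted p 0.177, limma). Without that replicate MIR774b changed by 0.87 and MIR826a by 0.89, and without Col replicate 2 MIR826a changed by 0.89. At MIR167a the inputs of clf-29 and Col differed by more than 1.5-fold.

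The third comparison set the double mutant against Col. In brm-1 clf-29, 8 miRNA genes were called higher than in Col and 84 lower, where 4.15% and 28.7% of all genes were called. Among 91 enriched in either genotype, 7 were called higher and 10 lower, against 19.3% and 6.45% of all enriched genes. Without Col replicate 2 the counts over all miRNA genes were 4 higher and 38 lower, and without Col replicate 1 or brm-1 clf-29 replicate 1 the lower calls were 46 and 49. Among the enriched genes MIR167a had the largest rise, to 28 and 32.6 RPM in the double mutant, against 8.48 and 8.28 RPM in Col (log2 change 1.73, SE 0.26, adjusted p 3.43e-07, limma), and was enriched in the double mutant alone. The other 6 were MIR8182 (1.36), MIR169b (1.17), MIR826a and MIR826b (1.05 each), MIR5019 (1.03) and MIR5650 (1.03). At MIR167a and MIR5650 the inputs of the double mutant and Col differed by more than 1.5-fold. Without genes with such inputs 5 of the 91 were called higher. The enrichment call of MIR167a also depends on these inputs. The largest falls among the 91 were at MIR845a (-2.05), MIR5665 (-1.90), MIR8171 (-1.82) and MIR3932b (-1.62). The rise of MIR169b was 0.98 without brm-1 clf-29 replicate 2, that of MIR5019 was 0.96 and that of MIR826a 0.92 without Col replicate 2, and that of MIR5650 was 1.00 without brm-1 clf-29 replicate 1, all under 2-fold. With size factors over windows enriched in Col, 1 of the 91 was called higher, MIR167a, and 20 were called lower. Factors over all genes gave 44 higher and 3 lower, and factors over windows enriched in no genotype gave 57 and 0.

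The contrast of brm-1 clf-29 with brm-1 asked how far the mark seen without BRM differs when CLF is mutated as well. Here the median of all genes moved by 0.03 on the log2 scale. In brm-1 clf-29, 3 miRNA genes were called higher than in brm-1 and 38 lower, where 1.16% and 4.47% of all genes were called. Of 94 enriched genes, 1 was called higher (MIR167a) and 17 lower, against 3.6% and 9.12% of all enriched genes. Their median was -0.18, and 0.22 over all enriched genes. All 3 genes of the chromosome 4 locus were among the 17. MIR5026 had 11.8 and 13.4 RPM in the double mutant and 36.2 and 48.1 RPM in brm-1 (log2 change -1.65, SE 0.25, adjusted p 4.76e-07, limma). MIR863 had 13 and 13.4 RPM in the double mutant and 32.8 and 41 RPM in brm-1 (-1.41), and MIR850 had 20.7 and 22 RPM in the double mutant and 47.3 and 47.7 RPM in brm-1 (-1.12). MIR5026, MIR850 and MIR863 thus changed by -0.55, -0.06 and -0.47 between brm-1 clf-29 and Col (adjusted p 0.0645, 0.822 and 0.105, limma), none of which passed the test.

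Among the enriched genes the largest fall was at MIR845a, which had 6.9 and 12.4 RPM in the double mutant and 48.1 and 62.4 RPM in brm-1 (log2 change -2.44, SE 0.25, adjusted p 8.05e-11, limma). MIR8171 changed by -2.14, MIR5665 by -2.32, MIR3932b by -1.85, MIR845b by -1.61, MIR5664 by -1.35, MIR395d by -1.32 and MIR5648 by -1.23. Smaller falls passed at MIR5028 (-1.18), MIR169k (-1.07), MIR397a (-1.06) and MIR158b (-1.05). MIR5641 had 2.44 and 1.92 RPM in the double mutant and 14.7 and 15.8 RPM in brm-1 (-2.36), and MIR5014b had 7.71 and 7.66 RPM in the double mutant and 27.5 and 24.8 RPM in brm-1 (-1.64). Both were enriched only in brm-1 by the window criterion. Of the 17 falls, 11 passed under every alternative run for them, among them those of MIR850 and MIR863. MIR169k gave -0.98 without brm-1 clf-29 replicate 1, MIR397a gave -0.91 without that replicate and -0.95 without brm-1 replicate 1, and MIR158b gave -0.74 without brm-1 clf-29 replicate 1 and -0.92 without brm-1 replicate 2. MIR167a, which rose by 1.21, gave 0.96 without brm-1 replicate 1.

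Between brm-1 clf-29 and clf-29, 3 miRNA genes were called higher and 1 lower, where 0.232% and 0.0792% of all genes were called. MIR850 had 20.7 and 22 RPM in the double mutant and 8.86 and 9 RPM in clf-29 (log2 change 1.17, SE 0.21, adjusted p 0.000516, limma). MIR863 had 13 and 13.4 RPM in the double mutant and 4.24 and 5.68 RPM in clf-29 (1.26, SE 0.24, adjusted p 0.00179, limma). MIR3932b had 7.71 and 8.62 RPM in the double mutant and 3.85 and 2.37 RPM in clf-29 (1.18, SE 0.26, adjusted p 0.00965, limma). At each gene the libraries of the double mutant lay above those of clf-29 and below those of brm-1. Only MIR850 was enriched over input in brm-1 clf-29. Of 75 genes enriched in either genotype, 1 was called higher and 0 lower, against 0.683% and 0.137% of all enriched genes (limma). At an unadjusted p under 0.05, 8 were higher and 9 lower, and limma-voom called 1 higher and 0 lower. The median change of the 75 genes was -0.05, and -0.03 over all enriched genes. MIR3932b was no longer past the threshold without brm-1 clf-29 replicate 1 (1.25, adjusted p 0.0752, limma), without replicate 2 (1.11, adjusted p 0.155, limma) or without clf-29 replicate 2 (0.92, adjusted p 0.128, limma). Whether the effect of brm-1 differs between the clf-29 and Col backgrounds was tested by the interaction term of the same fit, which called 4 miRNA genes with a higher and 2 with a lower effect in clf-29, where 0.52% and 0.372% of all genes were called. Of 98 genes enriched in any genotype, 0 had a higher and 2 a lower effect, against 0.0384% and 1.81% of all such genes (limma), and at an unadjusted p under 0.05 there were 1 and 26. The share of all such genes at the unadjusted p is not given here. The median interaction was -0.273 in the 98 genes and -0.274 over all such genes. MIR160a was 1 of the 2 called with a lower effect. There brm-1 clf-29 had 111 and 102 RPM against 143 and 151 RPM in clf-29, while brm-1 had 82.9 and 75.1 RPM against 57.7 and 61.3 RPM in Col (interaction -0.86, SE 0.16, adjusted p 0.00475, limma). With size factors over windows enriched in Col this interaction was -0.58 (adjusted p 0.0262, limma).

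Paralogs of 1 family were far apart. Among the MIR172 genes, which promote the adult phase and flowering, MIR172d had 84.8 and 82.4 RPM in the double mutant, 65.9 and 64.2 in brm-1, 88.9 and 103 in clf-29 and 60.5 and 59.6 in Col. MIR172c, which encodes the same mature miRNA, moved otherwise, with 28 and 41.5 RPM in the double mutant, 70.7 and 60.9 in brm-1, 40.8 and 55.9 in clf-29 and 56.4 and 59 in Col. MIR172c fell in brm-1 clf-29 relative to brm-1 (log2 change -0.92, SE 0.16, adjusted p 9.63e-06, limma) and MIR172d rose (0.36, adjusted p 0.0364, limma), neither by 2-fold. MIR172a, with the mature sequence of MIR172b, had 8.12 and 5.75 RPM in the double mutant, 12.5 and 12.8 in brm-1, 5 and 5.68 in clf-29 and 13.7 and 10.9 in Col, and MIR172e was at most 2.32 RPM in any ChIP library.

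The MIR160 and MIR167 genes were also far apart. MIR160c, with the miRNA of MIR160a, had 6.9 and 9.26 RPM in the double mutant, 12.8 and 17.7 in brm-1, 6.16 and 5.68 in clf-29 and 9.85 and 11.6 in Col, and was not enriched. MIR160b lay between, with 40.6 and 49.2 RPM in the double mutant, 46.2 and 47 in brm-1, 47.4 and 56.3 in clf-29 and 29.6 and 30.8 in Col. MIR167b, with the miRNA of MIR167a, had at most 3.97 RPM in any ChIP library. Its calls as lower in each mutant than in Col rest on 0 to 12 reads per library.

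**Figure D4:**
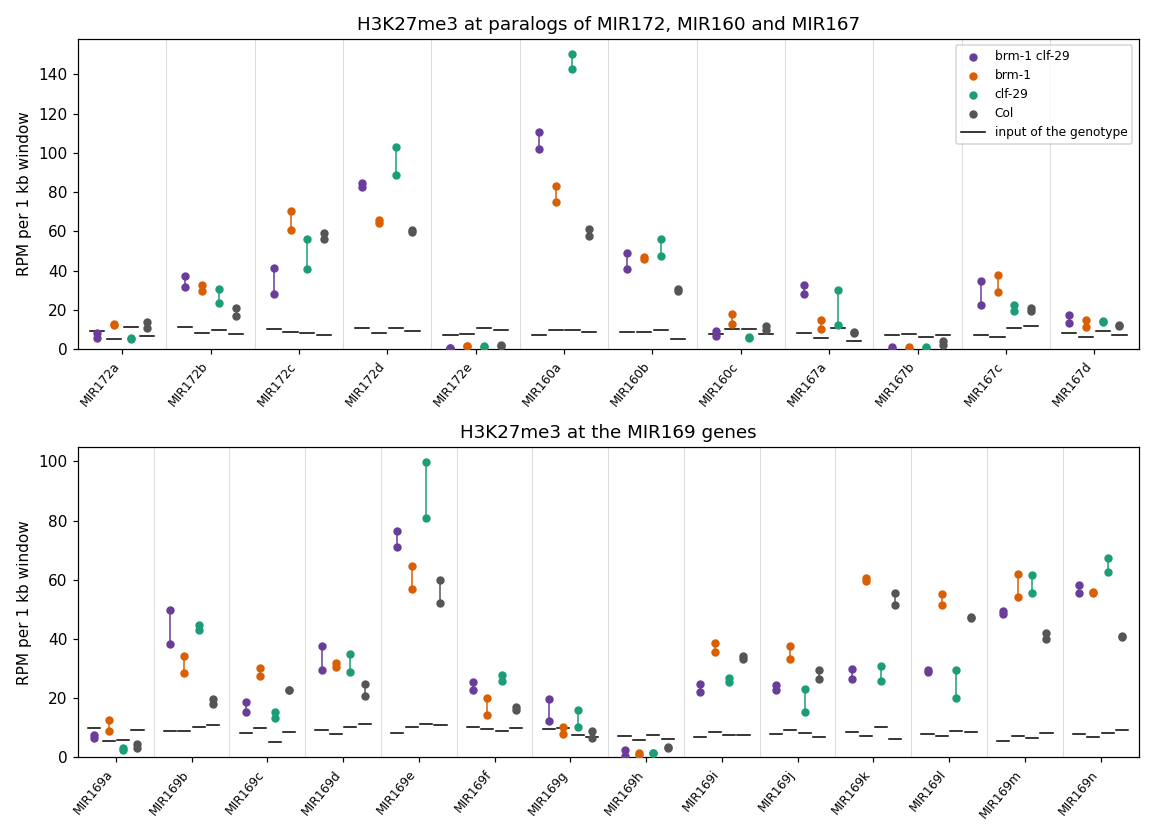
RPM of the MIR172, MIR160 and MIR167 genes (top) and the MIR169 genes (bottom) in the 2 ChIP libraries of the double mutant, brm-1, clf-29 and Col (points joined by a line), with short black lines for the input of each genotype. MIR169k and MIR169l have lower RPM in brm-1 clf-29 and clf-29 than in brm-1 and Col, while MIR169m and MIR169n, which encode the same miRNA in the same cluster, do not lie below Col. The windows of MIR169k and MIR169l share bases, as do those of MIR169m and MIR169n, so the genes of a pair are not independent measurements.

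The MIR169 genes, whose miRNA targets NF-YA subunits in nitrogen and drought responses, form the largest family, with 14 genes. In 6 genes (MIR169i to MIR169n, chr3:9871562-9879146) with 1 mature sequence (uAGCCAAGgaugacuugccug) the mark differed along the cluster. MIR169k had 26.4 and 30 RPM in the double mutant, 60.6 and 59.7 in brm-1, 25.8 and 30.8 in clf-29 and 51.5 and 55.6 in Col, a log2 change of -1.07 in the double mutant against brm-1 (adjusted p 5.68e-07, limma). MIR169n had 55.6 and 58.1 RPM in the double mutant, 55.9 and 55.6 in brm-1, 62.8 and 67.2 in clf-29 and 40.8 and 41.1 in Col, a change of 0.03 in the same contrast (adjusted p 0.966, limma). The enriched region over MIR169i was 13800 bp long in brm-1 clf-29, 14200 bp in brm-1, 1400 bp in clf-29 and 14200 bp in Col. A second clf-29 region, of 10400 bp, covered MIR169k to MIR169n. MIR169h, with the same miRNA on chromosome 1, had at most 3.31 RPM. Elsewhere in the nutrient list, the phosphate-responsive MIR399d had 85.2 and 85.6 RPM in the double mutant, 55.9 and 54.5 in brm-1, 82.4 and 105 in clf-29 and 50.4 and 44.7 in Col, while the copper-responsive MIR398a, MIR398b, MIR398c and MIR408 stayed at or below 1.99 RPM in every ChIP library.

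The patterning list differed from the nutrient list by its medians in genotypes with clf-29. In clf-29 against Col the median change was 0.62 over 15 enriched patterning genes, with 14 above 0, and -0.21 over 21 enriched nutrient genes, with 9 above 0. In brm-1 clf-29 against Col the medians were 0.53 and -0.23. In brm-1 against Col they were 0.29 and 0.24, with 17 of 18 and 19 of 20 genes above 0. Over all enriched genes the medians were 0.50 in clf-29, 0.47 in brm-1 clf-29 and 0.27 in brm-1, near those of the patterning list. Over the enriched genes of the other miRNA families the medians were -0.06, -0.03 and 0.35 in the same order. Changes against Col move with the scaling, as above, and the difference between the lists was not tested.

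Marked genes also differed in shape and place. At 55 genes enriched in all 4 genotypes, with windows of mostly unique sequence, the mean signal peaked within 100 bp of the gene's midpoint, at 13.1 and 13.2 RPM per 200 bp in brm-1 clf-29, 11.3 and 11.8 in brm-1, 13.8 and 14.9 in clf-29 and 9.69 and 9.45 in Col. Beyond 2900 bp it was 2.97 to 3.61 RPM in every ChIP library. The 12 genes enriched in brm-1 and Col only had a flatter profile, with a mean of 7.06 and 7.71 RPM within 600 bp and 5.54 and 6.07 RPM beyond 2900 bp in brm-1, and 6.1 and 5.71 RPM against 4.6 and 4.36 RPM in Col. In clf-29 those genes had 1.98 and 2.04 RPM near the midpoint and 3.16 and 3.62 RPM beyond 2900 bp. These groups were formed by enrichment of the window at the midpoint, so the central maximum and the levels are a description.

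**Figure D5:**
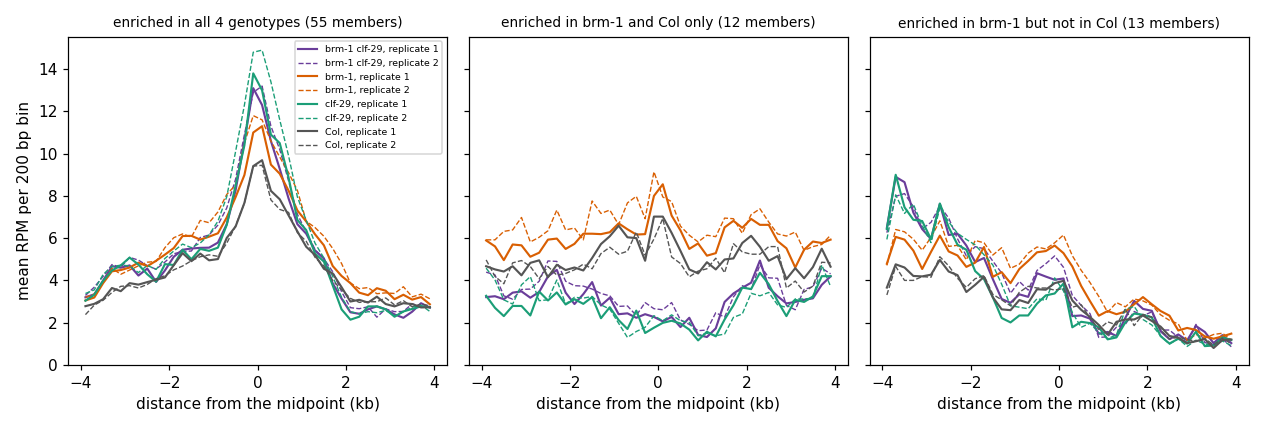
Mean RPM per 200 bp bin against distance from the midpoint of the miRNA gene (kb, in the direction of transcription) for 55, 12 and 13 genes grouped by enrichment, in each ChIP library of the double mutant, brm-1, clf-29 and Col. In the left panel the mean over the 55 genes is highest near the midpoint, with Col lowest at 9.69 and 9.45 RPM. In the middle panel brm-1 and Col stand above the genotypes with clf-29 within 600 bp of the midpoint. The genes were grouped by enrichment of the window at the midpoint.

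Of 220 miRNA genes that overlap no protein-coding gene, 68 were enriched in Col. Among those that overlap one, 7 of 55 on its strand and 5 of 30 on the opposite strand were enriched. Over all genes tested the share was 17.1%, and over all miRNA genes 26.2%, so the overlapping genes lay nearer the share of all genes. The difference was not tested. Enriched regions at the 80 Col-enriched genes were 800 to 21600 bp long, with a median of 5700 bp. At 39 of these 80 the nearest protein-coding gene was enriched too, against 17 of 225 among genes not enriched in Col and 17.1% of all genes tested. The nearest gene can overlap the miRNA gene or lie in the same enriched region. The 2 are then not separate measurements, and the counts describe the length of the regions as well.

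The 1 kb windows were searched on both strands for short motifs that bind factors known to recruit or remove the mark in Arabidopsis. The telobox AAACCCTA, which is bound by factors that recruit Polycomb repressive complex 2, was found in 32.5% of the windows enriched in Col, in 18.4% of those enriched in no genotype, in 17.2% of all gene windows enriched in Col and in 11% of all gene windows. CTCTGCTC, CTCTGCTT, CTCTGTTC or CTCTGTTT, the forms bound by the H3K27me3 demethylase REF6, occurred in 7.5% of the miRNA windows enriched in Col, in 26.6% of those enriched in no genotype, in 17.5% of all gene windows enriched in Col and in 28.1% of all gene windows. GAGAGAGA occurred in 17.5%, 15.5%, 14.3% and 13% of the same sets. A match is not a measured binding site. The median GC content was 32.7% in Col-enriched miRNA windows, 34.6% in those enriched in no genotype and 38.5% in all gene windows. Of the 10 enriched miRNA genes with the highest Col level, 8 held a telobox in the window, and 4 of these sites are shown with 25 bases on each side (TAIR10, on the strand of the motif, telobox in capitals).
MIR394b, chr1:28568901-28568958, minus strand: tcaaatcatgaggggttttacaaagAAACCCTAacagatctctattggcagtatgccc
MIR319a, chr4:12352746-12352803, minus strand: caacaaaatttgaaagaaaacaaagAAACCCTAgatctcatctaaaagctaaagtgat
MIR394a, chr1:7057942-7057999, minus strand: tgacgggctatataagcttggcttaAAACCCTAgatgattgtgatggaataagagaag
MIR172c, chr3:3599970-3600027, plus strand: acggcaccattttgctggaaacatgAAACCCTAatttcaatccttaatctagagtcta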

How the data were processed

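According to the methods and the processing notes of the submitters, reads were mapped with Bowtie 0.12.7 to TAIR10 and perfectly and uniquely mapped reads were kept. The deposited files list 1 read of 51 bp per line with position and strand, hold a score of 0 in every line, and give no counts and no other measured value. Some reads lie at 51-mers that occur more than once on chromosomes 1 to 5. Their share was 8.8% and 8.9% in the Col ChIP libraries, 3.91% to 5.32% in those of the mutants and 14.4% to 14.9% in inputs. Samples were assigned to 4 genotypes and to replicates from their labels.

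From the deposited positions, 1 read per position and strand was kept, its 5′ end was shifted by 75 bp, and reads were counted over 1 kb around the midpoint of every gene and divided by the kept reads (RPM). Genes with a mean of at least 10 reads over the 4 inputs were tested. Limma 3.58.1 (R 4.3.3; lmFit, eBayes with trend) was run on log2(RPM + 1) with all 8 ChIP libraries in 1 fit, and p-values were adjusted by Benjamini-Hochberg over 37895 genes. The scale understates changes at low levels. Calls needed more than 2-fold and adjusted p under 0.05, and the interaction the adjusted p alone. Standard errors come from the same fit, and p-values measure the spread between these 8 libraries. Enrichment over input was tested with an exact binomial test, adjusted p under 0.01. Each genotype has 1 input, without a replicate. Scripts were tested on simulated data.

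The miRNA genes and the function lists were chosen with earlier results of these data known. Named are up to 12 called and enriched genes per direction in each comparison, list genes enriched in at least 1 genotype, MIR167c, the 10 genes with the highest Col level, and paralogs with the same mature sequence. MIR169a, MIR168a, the MIR398 genes, MIR408, MIR854d and MIR854e lie outside this rule and were chosen after their values were seen. Alternatives covered redundant reads, 4 other scalings, pseudocounts, windows, filters, the read shift, limma-voom, the replicate number as a block, thinning and leaving out each replicate. Leaving out genes with under 90% unique 51-mers was added after seeing the data.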

Additional observations from a re-analysis of the deposited data

Results flagged for a closer look

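The effect of brm-1 differed between the clf-29 and Col backgrounds (adjusted p under 0.05 of the interaction in limma) at 6 miRNA genes. At MIR160a the interaction was -0.863 on the log2 scale, with a brm-1 effect of -0.46 in clf-29 and 0.40 in Col. At MIR5015, whose nearest protein-coding gene is NF-YC7, it was -0.737, with effects of -0.21 and 0.52. Both lie in unique sequence and were enriched in all 4 genotypes. The interaction at MIR160a lost its call in 3 of 24 alternatives. With size factors over windows enriched in Col it was -0.579 (adjusted p 0.0262, limma). The brm-1 effect at MIR160a in Col was then 0.162 (adjusted p 0.208, limma). With each library's background taken off that effect was 0.0962 (adjusted p 0.669, limma). MIR5015 did not pass without Col replicate 2, without brm-1 replicate 2 or without either replicate of brm-1 clf-29 (adjusted p 0.0695 to 0.114, limma).

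The other 4 genes were enriched in no genotype and have 11.7% to 32.2% of their window in unique 51-mers. Their interactions were 2.03 at MIR854d, 2.21 at MIR854e, 0.696 at MIR5642a and 0.658 at MIR5642b. In each the brm-1 effect was below 0 in Col (-2.05, -2.02, -0.86 and -0.86) and between -0.20 and 0.19 in clf-29. None of the 4 passed without brm-1 replicate 2, where the interactions were 0.276 to 1.4 (adjusted p 0.205 to 0.322, limma). None passed without Col replicate 2, without clf-29 replicate 2 or without brm-1 clf-29 replicate 1 either (adjusted p 0.0632 to 0.177, limma). The higher Col level of windows without enrichment and the higher share of Col ChIP reads at repeated 51-mers move with these 4 values. The part of either in them was not tested.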

How the results depend on the processing

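Of 77 changes of named miRNA genes, 14 passed the threshold under every alternative run for them, and 1739 of 1985 values kept their side of the threshold, 242 no longer passed and 4 were reversed. The 4 reversed values came with size factors over windows enriched in no genotype: 0.0802 at MIR5664 and 0.0371 at MIR158b in the double mutant against Col, and -0.28 at MIR5642a and -0.32 at MIR5642b for the interaction. That scaling sets windows without enrichment level between libraries.

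Counts of miRNA genes called against Col followed the scaling. The shares of all genes called under each scaling are not given, so these counts describe the miRNA genes alone. With factors over all genes, brm-1 had 56 higher and 5 lower, clf-29 43 and 31, the double mutant 52 and 20, and the interaction 57 lower. With factors over windows enriched in Col the counts were 1 and 67 in brm-1, 0 and 144 in clf-29, 1 and 140 in the double mutant, and 19 and 1 for the interaction. With factors over windows enriched in no genotype they were 116 and 4, 58 and 8, 75 and 8, and 0 and 84. After each library's background was taken off, 0 were higher in every comparison, and 2 were lower in brm-1, 46 in clf-29, 40 in the double mutant, 25 in the double mutant against brm-1, 0 against clf-29 and 0 for the interaction. A pseudocount of 4 gave 1 higher and 6 lower in brm-1, 25 lower in clf-29, 5 and 22 in the double mutant, 1 and 24 against brm-1, 0 and 0 against clf-29, and 9 and 6 for the interaction. A pseudocount of 0.25 gave 7 lower in brm-1 and 0 for the interaction in both directions.

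Other settings moved mainly the lower calls of brm-1 and the interaction. The lower calls of brm-1 were 57 over 2 kb, 18 under a minimum of 10 reads in 2 ChIP libraries, 6 at adjusted p under 0.01 and 20 with reads thinned to the smallest library, and those of the double mutant against Col were 41 at adjusted p under 0.01. Interaction calls were 11 higher and 8 lower over 2 kb, 9 and 7 over the widened gene, 7 lower with limma-voom, 0 higher with the ChIP read filter, 0 higher and 1 lower at adjusted p under 0.01, 0 and 0 with thinned reads, and 0 higher without genes of under 90% unique 51-mers. Unshifted reads gave 5 higher in the double mutant against brm-1. The 1 gene lower in the double mutant against clf-29 was 0 over 2 kb, over the widened gene, with limma-voom, with only the 2 genotypes compared and at adjusted p under 0.01. The interaction has no value with only 2 genotypes or without genes whose inputs differ. The cause of these moves was not tested.

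Deviations of same-numbered libraries correlated at 0.262 to 0.286 in the 3 pairs of mutant genotypes and at 0.0135 to 0.0621 in the 3 pairs with Col. Pairing required a correlation above 0.1 in every pair, so the numbers were not used to pair the samples, although same-numbered mutant libraries deviated together. With the replicate number as a block, 10 miRNA genes were called higher and 15 lower for the interaction, and no other count moved by over 1.5 times.

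Leaving out 1 library pools the spread, and the lone sample is assumed to vary like the others. Higher and lower calls then ranged over 1 to 4 and 4 to 43 in brm-1, 8 to 17 and 53 to 90 in clf-29, 4 to 10 and 38 to 87 in the double mutant, 2 to 5 and 28 to 42 in the double mutant against brm-1, 2 to 5 and 0 to 1 against clf-29, and 0 to 11 and 1 to 11 for the interaction. Enriched genes numbered 78 to 80 in the double mutant, 95 to 96 in brm-1, 70 in clf-29 and 84 to 85 in Col.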
